A study of Canis lupus familiaris with 6 samples.

Results

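The genes described here are the 4 cyclic AMP phosphodiesterases of the PDE4 family, the 3 nuclear receptors of the NR4A family, and CREM, SIK1 and PER1, all of them known to respond to cyclic AMP through the transcription factor CREB or to break cyclic AMP down. Members were taken by the gene name of the array design. Of 10 symbols, 9 had at least 1 probe, with 11 probes in all among 43603 probes and 14227 distinct symbols on the array. NR4A3 was the member without a probe under its name and was not analysed here. The set was proposed with the difference between the cultures already known, so the values of that difference are given as a description. Where a fit over all probes called a member, this is stated as part of that description, with no p-value, and it supports nothing about the set.

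All 6 samples were of one cell line, MDCK-pTR GFP-RasV12 with mCherry-β-catenin Δ131, which derives from the MDCK line of dog kidney epithelium. An EF1 promoter drives their N-terminally truncated, stabilised β-catenin (β-cat ΔN), and tetracycline switches on GFP-tagged RasV12, a constantly active Ras oncoprotein. In single culture (3 arrays) they were grown alone, and in mix culture (3 arrays) they were surrounded by 10 MDCK mCherry-β-catenin Δ131 cells per RasV12 cell, which lack the Ras construct. Both groups received tetracycline for 24 h, and GFP-positive cells were collected by flow cytometry before total RNA was labelled with Cy3 and hybridised to single-colour Agilent canine arrays. The single cultures were the control and carried both transgenes as well, so the comparison is of neighbours and not of genotypes. Every sample came from this one engineered line, and nothing in the labels states whether same-group samples were separate cultures, so errors measure the spread between these arrays.

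Cyclic AMP is made by adenylyl cyclases when receptors coupled to Gs are engaged, and it activates protein kinase A (PKA), which phosphorylates CREB. CREB then switches on early genes through cyclic AMP response elements, and several of its targets close the loop: PDE4 enzymes hydrolyse cyclic AMP, CREM can give rise to the repressor ICER from an internal promoter, and SIK1 holds back the CREB coactivators. In kidney epithelium this pathway is best known for vasopressin-regulated water transport.

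On each array 61.11% to 65.66% of non-control spots were well above background, and no spot was saturated. Replicate 1 of both groups lay on slide 1 and replicates 2 and 3 on slide 2. All of the 7 kidney epithelial markers with a probe among the 8 listed were well above background on all 6 arrays, and their summed signal was 400.0 to 492.0 times the array's 75th percentile in single culture and 310.0 to 401.0 times in mix culture. The leukocyte marker PTPRC and the fibroblast markers PDGFRA and DCN were well above background on no array. The summed signal of the endothelial and fibroblast lists was 5.5 to 14.0 and 0.808 to 1.82 in single culture and 4.66 to 14.4 and 0.677 to 1.47 in mix culture. CD3E, CD14, PECAM1, KDR, VWF, COL1A2 and PDGFRB were well above background on all 6 arrays. The surrounding cells are of the same epithelial line, so no marker list separates them from the sorted cells. No epithelial, endothelial or fibroblast marker was called without a block and 2 epithelial ones were with the slide block, and the part of the lower epithelial sum in the results was not tested. Of the genes of the introduced proteins, HRAS was 0.62 lower in mix culture on the log2 scale (SE 0.28, limma adjusted p = 0.608, n = 3 per group). It was lower in all 3 pairs of the same replicate number, though the groups overlapped. Its limma adjusted p was 0.0648 with the slide block, 0.0997 with the replicate block and 0.0296 with the numbers of mix culture replicates 2 and 3 exchanged. The part of this in the results was not tested. The 4 CTNNB1 probes were 0.14 to 0.27 higher without passing the test. Whether the HRAS and CTNNB1 probes read the introduced sequences was not determined.

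Signals below are background-subtracted intensities in the scanner's units, and differences are mix minus single culture on the log2 scale after each array was set to its own 75th percentile. A probe is called when its limma adjusted p over all 26623 probes tested is under 0.05. In these sorted bulk samples, fewer cells expressing a gene and less RNA per cell cannot be told apart. Over the 11 probes, 9 differences were above 0 and 2 below, with a median of 0.69, against a median of -0.05 over all probes tested, of which 42.0% were above 0. All 3 called probes, those of PDE4B, CREM and NR4A2, were higher in mix culture, against 0.804% of all probes tested that were called higher and 0.871% called in either direction. With the slide as a block in the fit, 7 of the 11 were called, all higher (3.99% of all probes were called higher and 7.22% either way), and with the replicate number as a block 6 were, again all higher (3.25% and 5.29%). In 7 of the 11 the lowest mix culture array lay above the highest single culture array, as it did for 7.83% of all probes tested. Since the set was chosen on this contrast, nothing is read from these shares. All 11 passed the filter on low signal, but PDE4B and PDE4C did so through the mix culture group only.

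**Figure D1:**
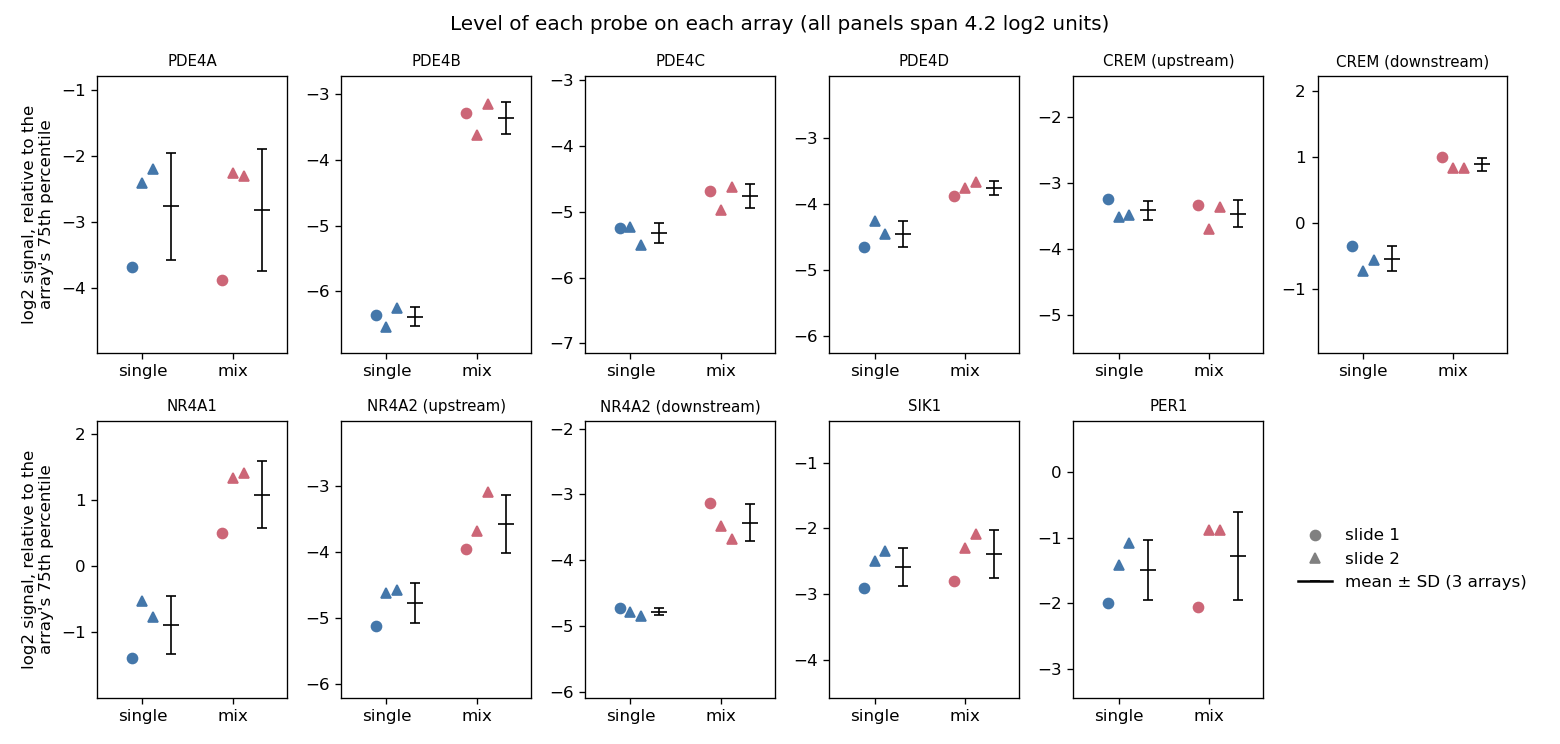
Level of each of the 11 probes on each array, on the log2 scale relative to the array's 75th percentile (blue, single culture; red, mix culture; circles, slide 1; triangles, slide 2; bars, mean ± SD over 3 arrays). Every panel spans the same number of log2 units, and the groups stand apart for PDE4B, PDE4C, PDE4D, NR4A1, both NR4A2 probes and the downstream CREM probe.

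PDE4B, the family member that cyclic AMP and inflammatory signals are both known to induce, showed the largest fitted difference of the 11 probes. Its probe (A_11_P107146; CanFam3.1, chr5:44068398-44068457, minus strand) is shown because this one sequence carries the finding for the gene:

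PDE4B: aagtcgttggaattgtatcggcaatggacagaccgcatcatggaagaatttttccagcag

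The PDE4B signal was 2.5, 1.79 and 2.26 in single culture replicates 1, 2 and 3, and 23.8, 14.6 and 18.1 in the mix cultures with those numbers. No single culture array and every mix culture array was well above background. Only an approximate lower bound on the fold can therefore be given, and by it PDE4B was about 4.16-fold higher or more in mix culture. The fitted difference, 3.03 (SE 0.18), rests on single culture signals below background and is no estimate of the fold. With normexp background correction, which adds an offset to every signal, the fitted difference was 0.40 and PDE4B was not called. That setting also used the median signal of each spot and quantile normalisation. The methods' t-test called none of the 11 probes after adjustment over all probes (0.03% of all probes were called), and 7 at an unadjusted p under 0.05 (9.75% of all probes).

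PDE4D, an enzyme whose long forms PKA itself activates, was higher in mix culture by a smaller amount. Its signal was 8.19, 8.74 and 7.91 in single culture and 15.9, 13.5 and 12.7 in mix culture. The groups did not overlap, and the difference was 0.69 (SE 0.17, 1.61-fold). It was called with either block and on slide 2 alone, but not in the main fit without a block. PDE4C had signals of 5.44, 4.43 and 3.8 in single culture, where 1 of 3 arrays was well above background, and 9.11, 5.75 and 6.52 in mix culture, where all 3 were. Its difference was 0.57 (SE 0.17), and by replicate number it ran from 0.26 to 0.88. PDE4C was called with the slide block but not with the replicate block or without a block. With normexp correction the differences of PDE4C and PDE4D were 0.03 and 0.10.

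The probes of PDE4C (A_11_P0000028874; chr20:44790107-44790690, plus strand) and PDE4D (A_11_P102466; chr2:45848618-45849396, minus strand) each cover 60 bases of transcript that span 584 and 779 bases of genome, so both cross a splice junction. They are shown together because they cover the same stretch of these paralogs. Capitals mark the identical bases where the sequences are aligned without gaps:

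PDE4C: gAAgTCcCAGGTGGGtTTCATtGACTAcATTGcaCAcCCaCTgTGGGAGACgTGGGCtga
PDE4D: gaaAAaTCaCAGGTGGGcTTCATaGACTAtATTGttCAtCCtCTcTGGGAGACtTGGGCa

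Of the 58 aligned bases, 45 (77.6%) were identical, whereas every other pair of PDE4 probes shared 32.2% to 39.3% at its best ungapped alignment. How far either probe reads the other gene's transcript was not tested, so the values of PDE4C and PDE4D are uncertain as measures of the single genes. The PDE4B probe shared 33.9% with that of PDE4C and 36.4% with that of PDE4D.

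PDE4A, the remaining gene of the family, had nearly equal means in both cultures. Its signal (A_11_P0000028976; chr20:50674231-50674290, minus strand) was 15.9, 31.7 and 37.4 in single culture and 15.8, 37.9 and 32.7 in mix culture. The low value in each group was the slide 1 array, and the groups overlapped almost entirely. The difference was -0.05 (SE 0.55), with a 95% interval of -1.35 to 1.25, and within the slides it was -0.19 and 0.02. The width of that interval came with the gap between the slides, which was 1.5 on the log2 scale (slide 2 minus slide 1, SE 0.12).

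CREM, which encodes activators and, from an internal promoter, the early repressor ICER, has 2 probes on the array, both on the minus strand of chr2 and 30.5 kb apart. The upstream probe (A_11_P0000019939; chr2:1785919-1785978) lies nearer the start of the gene and the downstream probe (A_11_P148073; chr2:1755359-1755418) nearer its end. The sequence of the upstream probe is shown, and that of the downstream probe is not:

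CREM upstream: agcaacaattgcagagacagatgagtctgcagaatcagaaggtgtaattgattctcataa

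The downstream CREM signal was 161.0, 101.0 and 117.0 in single culture and 466.0, 323.0 and 285.0 in mix culture. Every mix culture array stood above every single culture array, by 1.18 log2 units at the nearest. The difference was 1.43 (SE 0.16, 2.7-fold), with 1.35 on slide 1 and 1.47 on slide 2. The upstream probe, in contrast, gave 21.6, 14.6 and 15.4 in single culture and 23.2, 13.9 and 15.6 in mix culture, so the groups overlapped. Its difference was -0.05 (SE 0.17), with a 95% interval of -0.46 to 0.36. The differences of the upstream and downstream probes were not tested against each other. Which CREM transcripts each probe detects was not determined here. The call of the downstream probe was lost when single culture replicate 2 or 3 or mix culture replicate 2 or 3 was left out, with a difference of 1.34 to 1.53 over all 6 such fits.

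The NR4A receptors are orphan nuclear receptors of the immediate early class, switched on within a short time by cyclic AMP, calcium and growth factor signals. NR4A1 (Nur77) was measured by 1 probe (A_11_P0000019945; chr27:2950003-2950062, minus strand) and NR4A2 (Nurr1) by 2 on the minus strand of chr36, an upstream one (A_11_P056866; chr36:2547763-2547822) and a downstream one (A_11_P138651; chr36:2546484-2546543) 1.2 kb apart. The NR4A1 and upstream NR4A2 probes are shown because they stand for both receptors measured, and they shared 36.2% of bases at their best ungapped alignment:

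NR4A1: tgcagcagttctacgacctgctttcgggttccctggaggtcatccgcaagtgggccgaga
NR4A2 upstream: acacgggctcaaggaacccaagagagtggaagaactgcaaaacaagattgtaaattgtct

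NR4A1 had a signal of 78.6, 116.0 and 101.0 in single culture and 330.0, 459.0 and 430.0 in mix culture. The groups stood apart by 1.03 log2 units. The difference was 1.98 (SE 0.32, 3.96-fold), and by replicate number it was 1.89, 1.87 and 2.19. NR4A1 was not called in the main fit without a block. It was called with either block, on slide 2 alone and, without a block, when mix culture replicate 1 was left out. Its levels in each group were lower on slide 1, which put an SD of 0.44 and 0.51 on the single and mix culture means of -0.90 and 1.09.

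The NR4A2 probes gave similar differences. The upstream NR4A2 probe had a signal of 5.88, 6.79 and 7.19 in single culture and 15, 14.1 and 18.9 in mix culture, a difference of 1.20 (SE 0.27, 2.3-fold). The downstream probe had 7.75, 6.08 and 6.03 in single culture and 26.7, 16.2 and 12.6 in mix culture, a difference of 1.35 (SE 0.18, 2.56-fold). Neither probe's groups overlapped, and all 6 arrays were well above background for both. The mix culture arrays were ordered differently by the probes, with replicate 1 highest downstream and replicate 3 highest upstream. The downstream probe was called without a block and lost its call when any array but mix culture replicate 1 was left out, with a difference of 1.20 to 1.48 over all 6 such fits. The upstream probe was called with either block and on slide 2 alone, but not in the main fit without a block. With normexp correction the upstream and downstream differences were 0.22 and 0.28, and neither was called.

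SIK1, a kinase that is induced by CREB and keeps its CRTC coactivators out of the nucleus, had a signal (A_11_P061601; chr31:37458187-37458246, minus strand) of 27.3, 29.4 and 33.8 in single culture and 33.4, 37.0 and 37.8 in mix culture. On the normalised scale the groups overlapped. Its difference was 0.19 (SE 0.24), with a 95% interval of -0.38 to 0.77. PER1, a circadian clock repressor with cyclic AMP response elements in its promoter, had a signal (A_11_P0000032684; chr5:32958168-32958227, minus strand) of 51.9, 62.8 and 81.8 in single culture and 56.2, 97.5 and 86.9 in mix culture. The PER1 groups overlapped too, with a difference of 0.21 (SE 0.38), an interval of -0.68 to 1.11, and values of -0.07 on slide 1 and 0.35 on slide 2. Neither SIK1 nor PER1 was called without a block, with either block, or with any array left out.

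**Figure D2:**
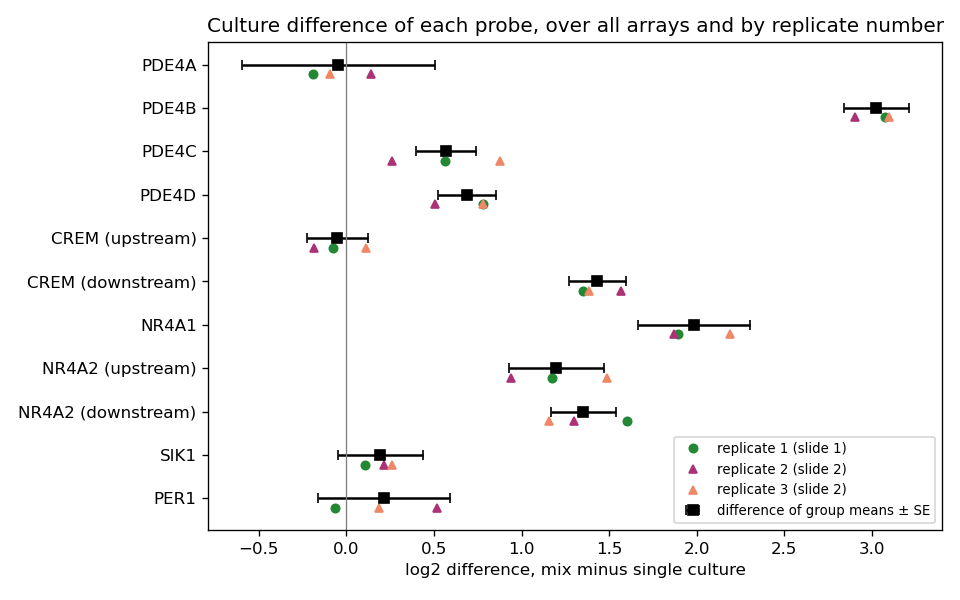
Log2 difference, mix minus single culture, of each of the 11 probes (squares, difference of group means ± SE of the limma fit, n = 3 per group) and of each pair of arrays with the same replicate number (circles, slide 1; triangles, slide 2). All 3 pairs lie above 0 for PDE4B, PDE4C, PDE4D, the downstream CREM probe, NR4A1, both NR4A2 probes and SIK1, and they fall on both sides of 0 for PDE4A, the upstream CREM probe and PER1.

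The slide does not enter the choice of these genes, so the difference between slides could be tested. This set replicate 1 of each group (slide 1) against replicates 2 and 3 (slide 2). With a single slide on each side, the p-values measure the spread between arrays and not between slides. With the culture in the model, 5 of the 11 probes were higher on slide 2 and none lower, which stands against 47.2% of all probes tested that differed between slides and 22.3% that were higher on slide 2. PDE4A differed most (1.5, SE 0.12, limma adjusted p = 0.000114), followed by PER1 (0.95, SE 0.15, limma adjusted p = 0.00157), NR4A1 (0.81, SE 0.12, limma adjusted p = 0.00134), SIK1 (0.55, SE 0.12, limma adjusted p = 0.00667) and the upstream NR4A2 probe (0.55, SE 0.16, limma adjusted p = 0.0259). The probes of PDE4B (-0.07, SE 0.16, limma adjusted p = 0.75) and downstream CREM (-0.23, SE 0.11, limma adjusted p = 0.126) did not pass. The downstream NR4A2 probe (-0.27, SE 0.13, limma adjusted p = 0.129) did not pass either, and its slide difference had the opposite sign to that of the upstream probe. The slides differed in scan resolution and in the version of the scanner software, and these cannot be told apart from differences between the cultures numbered 1 and those numbered 2 and 3. Without mix culture replicate 1, 3 of the 11 probes differed between slides, as did 33.8% of all probes in that fit.

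**Figure D3:**
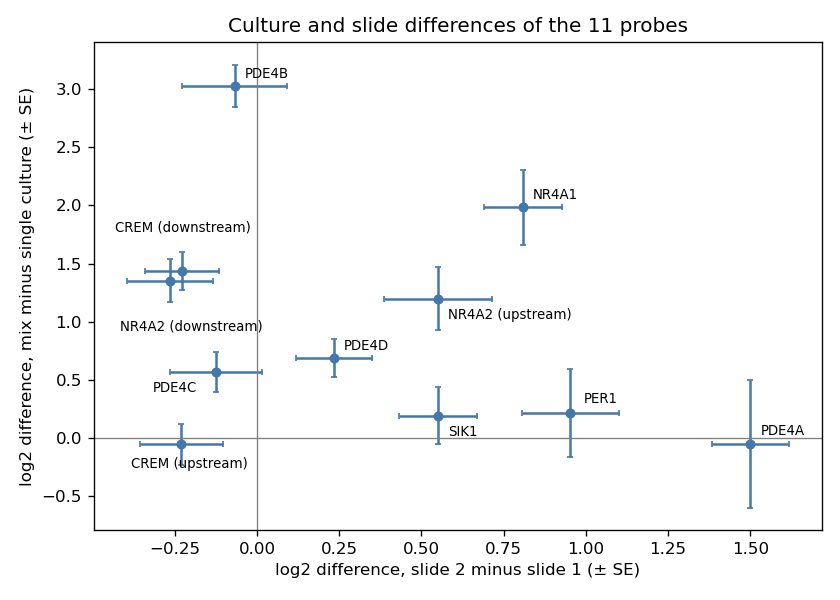
Culture difference (vertical axis, log2, mix minus single culture, ± SE) against slide difference (horizontal axis, log2, slide 2 minus slide 1, ± SE) of the 11 probes. PDE4B, whose single culture level is below background, and the downstream CREM and NR4A2 probes combine a high culture difference with a slide difference near or below 0, and PDE4A and PER1 show the reverse.

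The rest of the pathway was read from 6 lists of 95 genes, of which 84 had a probe and 53 were tested, each by its brightest probe. Of these 53, 27 had a difference above 0 and 26 below, and the median difference of the 53 was 0.01, against -0.05 over all probes tested. Called higher in mix culture were 3, and none was called lower. The 3 were PCK1, PPARGC1A and PER2, all in the list of other CREB target genes. The first 2 were listed with their values known, and PPARGC1A and PER2 passed the filter on low signal through mix culture only, so the count is not read against the share of all probes. With signal required on all 6 arrays, PCK1 alone was called. In the lists of receptors, G proteins and cyclases, PKA and EPAC, CREB factors, and other phosphodiesterases, limma called 0 of 35, with 2 at an unadjusted p under 0.05, and the methods' t-test called 0, with 3 at an unadjusted p under 0.05. Over all probes tested, limma called 0.871%, and 2324 of 26623 had an unadjusted p under 0.05. The methods' test called 0.03% of all probes after adjustment and 9.75% at the unadjusted threshold. At shares this low, the counts among 35 genes do not show that these lists were unchanged. With the slide block 8 of the 53 genes were called higher and 2 lower, where 3.99% of all probes were called higher and 7.22% either way. With the replicate block 8 were called higher and 1 lower, where the shares were 3.25% and 5.29%.

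At the top of the pathway, 6 of 13 receptors coupled to Gs with a probe were tested, with a median of -0.21. CALCR, the calcitonin receptor, was 0.45 lower in mix culture (SE 0.14, limma adjusted p = 0.34) and was called lower with the slide block (limma adjusted p = 0.0355). PTGER2, a prostaglandin E2 receptor, was 0.37 higher (SE 0.23, limma adjusted p = 0.784). Of 14 G proteins and adenylyl cyclases with a probe, 6 were tested, with a median of -0.09. The adenylyl cyclases with the largest differences were ADCY3, at -0.29 (SE 0.42, limma adjusted p = 0.948), and ADCY6, at 0.24 for its brightest probe (SE 0.14, limma adjusted p = 0.766) and -0.04 for its other tested probe.

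Among the effectors, 15 of 17 genes for PKA subunits, PKA inhibitors, anchoring proteins and the EPAC exchange factors were tested, with a median of 0.01. AKAP12, a scaffold that tethers PKA, was 0.75 higher in mix culture (SE 0.20, limma adjusted p = 0.256) and was called with the slide block (limma adjusted p = 0.0203). All 4 AKAP12 probes were higher, by 0.55 to 0.75. AKAP5, another PKA anchor, was 0.32 higher (SE 0.21, limma adjusted p = 0.801). All 6 CREB factors and coactivators with a probe were tested, with a median of -0.09, and the largest differences were those of SIK2, a kinase related to SIK1, at 0.44 (SE 0.28, limma adjusted p = 0.783) and ATF1, a close relative of CREB, at -0.34 (SE 0.18, limma adjusted p = 0.722). SIK2 was well above background on 1 of 3 single culture arrays. Of 10 other cyclic AMP phosphodiesterases with a probe only 2 were tested, PDE8A at 0.42 (SE 0.25, limma adjusted p = 0.762) and PDE2A at 0.20 (SE 0.21, limma adjusted p = 0.905).

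Of 24 other CREB target genes with a probe 18 were tested, with 12 differences above 0, 6 below and a median of 0.32, and 3 were called higher. PCK1, the rate-limiting enzyme of gluconeogenesis, had a signal at its brightest probe of 45.9, 35.2 and 28.9 in single culture and 1080.0, 922.0 and 523.0 in mix culture. That is a difference of 4.42 (SE 0.22), which was called, with groups far apart. The other PCK1 probes gave 4.48 (called) and 1.73 (not called). Each of them was well above background on 1 of 3 single culture arrays, so these differences rest on single culture signals near background. PPARGC1A, the coactivator that drives gluconeogenic genes, had a signal of 0.911, 0.911 and 1.08 in single culture, where no array was well above background, and 14.6, 17.0 and 16.4 in mix culture. By the same approximate bound its mix culture level at this probe was about 3.6-fold higher or more. PPARGC1A was called, but the fit rests on single culture signals below background. The other 4 of its 5 probes were well above background on no mix culture array. One of those 4 (A_11_P109931) was well above background on single culture replicate 1, with a signal of 16.8 there against 1.34 to 1.92 in mix culture. The values of PCK1 and PPARGC1A were known when the lists were written.

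PER2, the paralog of PER1 and also a clock gene, had a signal of 7.58, 6.38 and 3.6 in single culture and 123, 51.1 and 37.4 in mix culture. The groups were far apart. The fitted difference was 3.40 (SE 0.37) and was called, but it rests on single culture signals near background. PER2 passed the filter through mix culture, since 2 of 3 single culture arrays were well above background. Its call was lost without mix culture replicate 2, where the difference was 3.5 (SE 0.44). The other PER2 probe was well above background on no array. With normexp correction PER2 was at 0.86 and PPARGC1A at 0.37, and neither was called. PER1 and PER2 were thus measured at 0.21 and 3.40, and the difference between these paralogs was not tested.

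RGS2, a regulator of G protein signalling, was called at a probe that was not its brightest, with a signal of 513.0, 472.0 and 423.0 in single culture and 1830.0, 990.0 and 1100.0 in mix culture. This was a difference of 1.36 (SE 0.18, limma adjusted p = 0.0215), lost when any array but mix culture replicate 1 was left out (1.32 to 1.5). The brightest RGS2 probe gave 1.27 (SE 0.24, limma adjusted p = 0.0863) and was called with either block. The early genes that CREB shares with other pathways had smaller differences. ATF3 was 0.96 higher (SE 0.20, limma adjusted p = 0.119) and was called with the slide block (limma adjusted p = 0.00656). FOS was 0.40 higher (SE 0.32, limma adjusted p = 0.85), and the EGR1 probes were 0.21 and 0.32 higher (limma adjusted p = 0.905 and 0.839). DUSP1, a phosphatase that switches off MAP kinases, was 1.03 higher (SE 0.41, limma adjusted p = 0.532), and SGK1, a kinase that controls sodium transport in kidney epithelium, was 0.85 higher (SE 0.55, limma adjusted p = 0.785) at its brightest probe and 0.18 higher at its other tested probe. STC1, the hormone stanniocalcin 1, was 0.57 lower (SE 0.18, limma adjusted p = 0.375). With the slide block, the brightest probes of DUSP1 and SGK1 were called higher (limma adjusted p = 0.0101 and 0.00349) and that of STC1 lower (limma adjusted p = 0.048).

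**Figure D4:**
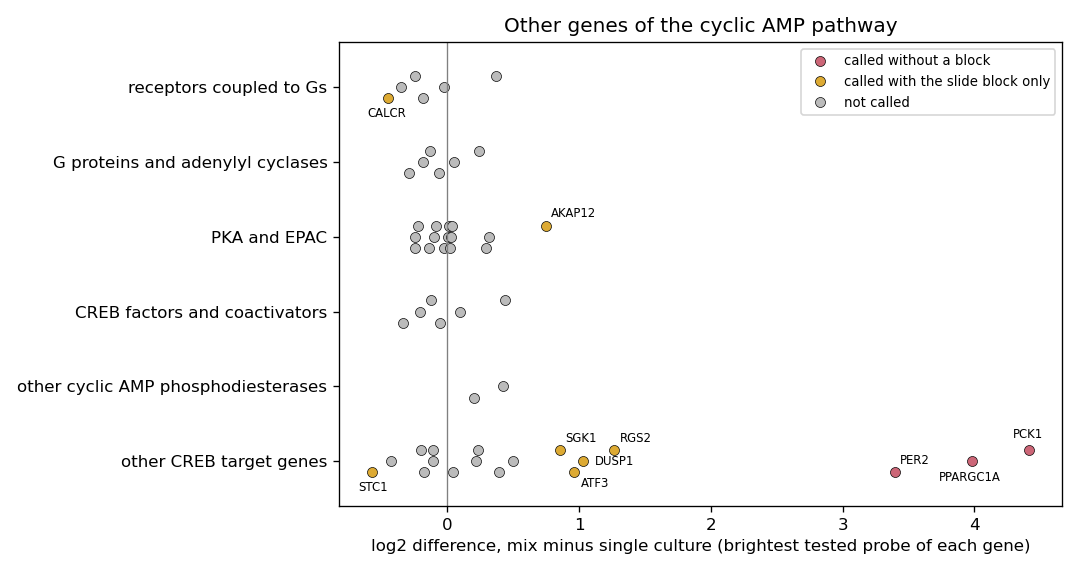
Log2 difference, mix minus single culture, of the 53 tested genes of the 6 pathway lists, 1 point per gene at its brightest probe. Red marks genes called without a block, yellow those called with the slide block but not without a block, and grey the rest. Calls with the replicate block are not shown. PCK1, PPARGC1A and PER2 stand far to the right in the list of other CREB target genes, while the other 5 lists lie between -0.45 and 0.75.

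For the called probes of CREM and NR4A2, the genes with the most similar pattern over the 6 arrays were found by the root mean square difference of centred log2 values among 16126 named probes well above background on all arrays. Nearest to the downstream CREM probe were IFIH1, a cytoplasmic sensor of viral RNA (0.10), RABGAP1L (0.12) and NR4A2 (0.15). Nearest to the downstream NR4A2 probe were RABGAP1L (0.10), TSPAN5 (0.13) and RASSF5 (0.13). The points were 6 arrays of 2 groups on 2 slides, and these genes differed between the cultures by 1.11 to 1.44, a size close to that of the probes they were matched to, so likeness follows the contrast the set was chosen on. No likeness is given for PDE4B, since its single culture level was below background.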

How the data were processed

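Total RNA of 3 single and 3 mix cultures was measured on single-colour arrays. For every array the authors deposited its scanner output, with the background-subtracted intensity of each spot, made with Agilent Feature Extraction and, per the file headers, not scaled between arrays (version 11.5.1.1 for slide 1, scanned at 3 µm, and 12.1.1.1 for slide 2, at 5 µm). They also deposited a table of log2 values centred within slides, used as an alternative source. Groups and replicate numbers came from the sample titles.

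Control spots and the 5 to 9 flagged spots per array were left out, repeated spots were averaged, and the 75th percentile of an array (160.97 to 233.1) was subtracted from its values on the log2 scale. Where all arrays of 1 group or of both were well above background, a probe was tested in limma 3.58.1 (R 4.3.3, two-sided, no block, Benjamini-Hochberg adjustment). The steps were tested on simulated data. The fold bound for a probe below background in single culture sets the mix culture mean against, per array, the higher of its own signal and the lowest signal well above background. This bound is approximate, since a probe can exceed that lowest signal without being well above background. On single culture replicate 1, MC1R was such a probe, at 5.08 against a lowest signal of 4.189. SDs are over the 3 arrays of a group. SEs are those of the limma fit, whose variance is shared by both groups and drawn towards that of all probes tested. The number of arrays, 3 per group, limits the precision. A probe's level was not set against another probe's.

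Members and lists were chosen with earlier results of these data known, including those of PDE4B, CREM, NR4A2, PCK1 and PPARGC1A. Named genes were all members, the called pathway genes and the 2 largest differences per list, the 3 genes most like each called member (not given for PDE4B, which was below background in single culture), 5 genes fixed by name (PCK1, PPARGC1A, FOS, EGR1, ATF3), HRAS and CTNNB1. DUSP1, SGK1 and STC1 were named after their values were seen. Probe positions are the files' own on CanFam3.1. Exon annotation, promoters and proteins were not used here. One leukocyte marker, and the summed signal of its list, is not reported here. All 10 member symbols matched a RefSeq gene table (UU_Cfam_GSD_1.0), used for names alone.

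Arrays with the same replicate number in the titles deviated together from their group means (r = 0.801, 0.53 and 0.572 for replicates 1, 2 and 3, over 26623 probes), but so did arrays of different numbers on slide 2 (0.61 and 0.632). The fit without a block was the main one, and values with the replicate number as a block are given beside it. Alternatives were the slide or replicate number as a block, other filters, background correction and normalisation, the deposited table, the methods' t-test, slide 2 alone, and each array left out.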

Additional observations from a re-analysis of the deposited data

How the results depend on the processing

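Without a block, 232 of all probes, 3 of 11 member probes and 3 of 53 pathway genes were called. With the slide block these counts were 1923, 7 and 10, with the replicate block, which pairs arrays of one number, 1408, 6 and 9, and with the log2 values that the authors deposited they were 4077, 7 and 13, a fit that takes values centred within each slide for independent arrays and so can give too many calls. Slide 2 alone gave 998, 6 and 7. Requiring signal well above background on all 6 arrays gave 142, 2 and 1, and normexp background correction with an offset of 50 gave 132, 1 and 1. The methods' t-test gave 8, 0 and 0 after adjustment and 2596, 7 and 9 at its unadjusted threshold, where limma gave 2324, 7 and 10. Leaving out 1 array gave 91 to 247 calls, 1 to 4 member probes, 2 to 3 pathway genes and 3 to 5 member probes differing between slides. The low counts over all probes came without single culture replicate 3 (91), mix culture replicate 2 (92) or mix culture replicate 3 (92). Quantile normalisation and no filter on dim probes gave 233 and 222 calls and the same 3 member probes.

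The columns of mix culture replicates 2 and 3 in the deposited table matched each other's scanner files. With these numbers exchanged, the replicate block gave 1459 calls, 7 member probes and 8 pathway genes.

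Of 174 recomputed member differences, 168 moved by less than the spread between arrays and none of a called probe changed sign. The other 6 fell with normexp: PDE4B to 0.40, PDE4C to 0.03, PDE4D to 0.10, downstream CREM to 1.1 and the NR4A2 probes to 0.22 and 0.28. That setting added an offset and also used the median signal of each spot and quantile normalisation. Which of these lowered the values was not tested. PDE4A kept its sign in 12 of 16 alternatives, upstream CREM in 14 of 16 and PER1 in 15 of 16. Of 491 recomputed values of 31 pathway and transgene probes, 4 changed sign, none of a called probe: PDE2A with normexp (-0.012), ADCY3 without single culture replicate 1 (0.12, against -0.63 without mix culture replicate 1), and the dimmer ADCY6 probe without single culture replicate 1 (0.13) or mix culture replicate 2 (0.12, against -0.25 without mix culture replicate 1). With normexp PPARGC1A (0.37) and PER2 (0.86) were no longer called. The median difference of the pathway genes stayed between -0.03 and 0.07. The array number limits these values. So do single culture signals near or below background for PDE4B, PDE4C, PPARGC1A and PER2, and low ones for PDE4D and the NR4A2 probes.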
